A study of Mus musculus with 11 samples.

Results

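Mitochondrial ribosomal protein genes were followed in injured and uninjured pieces of mouse hearts by RNA sequencing. They were taken by symbol, as every gene whose name begins with Mrpl or Mrps followed by a digit, which gave 77 of the 15274 genes measured, 48 Mrpl and 29 Mrps. The 11 libraries came from 6 mice of 8 weeks at day 7, in 4 groups: injured heart regions of C3H/HeJ mice (C3H, n = 2), uninjured regions of the same strain (n = 3), injured regions of C57BL/6J mice (B6, n = 3) and uninjured regions of that strain (n = 3). In 5 of the 6 mice both regions of 1 heart were sequenced. No mutation or agent is named for any group, and the labels do not say how the injury was made. Values are read counts per gene divided by a size factor for the library, called normalised counts below. Libraries held 9699985 to 22138459 reads assigned to genes, of which the 77 genes took 0.230% to 0.766%, and the lowest count of any of them in a library was 156 reads. All 20 cardiomyocyte markers examined were detected in every library of these heart samples. All C3H libraries had high Xist and nearly no Y-linked reads and all B6 libraries the reverse, so that strain and sex cannot be told apart in any comparison of the strains.

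The mitochondrial ribosome, or mitoribosome, makes the few proteins that mitochondrial DNA encodes, all of them subunits of the respiratory chain and ATP synthase. Its rRNAs are encoded in mitochondrial DNA, whereas each of its proteins is encoded in the nucleus, made on cytosolic ribosomes and imported. Some of these proteins have a counterpart in the bacterial ribosome, and others, here called mitochondria-specific, were added in the lineage of mitochondria. The large subunit joins amino acids and the small subunit reads the mRNA. Heart muscle is dense in mitochondria, and inherited defects of several of these proteins cause cardiomyopathy in humans.

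Promoters of these genes have no TATA box as a rule and hold sites of a few shared factors, which is why 5 of them are shown. RefSeq windows of 250 bases before to 50 bases after the start (build GRCm38.p6) were matched by symbol for 68 of the 77 genes, as 74 windows. Stretches of 150 bases before to 30 bases after the start are printed 5′ to 3′ on the strand of the gene, with capitals for matches on either strand to the core motifs of NRF1 (GCGCANGCG), of GABPA and other ETS factors (CCGGAAG) and of YY1 (AAGATGGC). Mrpl39 and Mrps27 stand for genes with a low p in the comparison of the injury effects of the strains, Mrps21 for those with a large fall in C3H, Mrps18a for a protein named after the small subunit that sits in the large one, and Mrps2 for the smallest change in C3H. They lie at chr16:84735215-84735394 (Mrpl39, minus strand), chr3:95871485-95871664 (Mrps21, minus strand), chr13:99344636-99344815 (Mrps27, plus strand), chr17:46110854-46111033 (Mrps18a, plus strand) and chr2:28467916-28468095 (Mrps2, plus strand).
Mrpl39: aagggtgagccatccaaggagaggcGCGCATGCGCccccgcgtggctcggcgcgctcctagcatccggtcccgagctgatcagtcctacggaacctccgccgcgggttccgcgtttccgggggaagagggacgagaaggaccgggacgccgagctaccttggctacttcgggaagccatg
Mrps21: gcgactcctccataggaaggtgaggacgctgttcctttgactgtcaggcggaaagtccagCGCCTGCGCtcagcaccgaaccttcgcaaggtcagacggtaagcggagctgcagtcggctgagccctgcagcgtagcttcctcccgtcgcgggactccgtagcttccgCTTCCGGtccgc
Mrps27: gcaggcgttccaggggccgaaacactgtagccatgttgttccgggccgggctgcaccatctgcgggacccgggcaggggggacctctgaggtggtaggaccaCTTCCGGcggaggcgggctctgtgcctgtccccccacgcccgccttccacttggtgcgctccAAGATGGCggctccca
Mrps18a: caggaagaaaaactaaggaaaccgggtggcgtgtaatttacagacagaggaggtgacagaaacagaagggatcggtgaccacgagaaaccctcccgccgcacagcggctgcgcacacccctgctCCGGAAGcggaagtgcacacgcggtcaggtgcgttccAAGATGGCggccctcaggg
Mrps2: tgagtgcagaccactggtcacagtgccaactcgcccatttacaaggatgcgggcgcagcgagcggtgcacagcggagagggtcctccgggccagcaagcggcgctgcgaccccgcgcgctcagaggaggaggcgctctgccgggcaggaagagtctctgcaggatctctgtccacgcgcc

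The stretch of Mrpl39 held overlapping NRF1 matches far from the start, that of Mrps21 an NRF1 and an ETS match, those of Mrps27 and Mrps18a an ETS match and a YY1 match just past the start, and that of Mrps2 none of the 3 motifs. Genes not shown varied as well. The stretch of Mrps5, with the smallest p for the injury effects of the strains, held no whole match. Neither did those of Mrpl42, Mrpl28 and Mrpl55, with large falls in C3H, while those of Mrpl51 and Mrpl14 held 1 each. Over the whole windows of the mitochondrial ribosomal protein genes the ETS motif was in 33.8% (25 of 74), against 15.1% of the 14521 windows of all genes of the table. The NRF1 motif was in 21.6% and 11.6%, and the YY1 motif in 16.2% and 3.82%. Other gene lists described below shared part of this excess. In windows of nuclear respiratory chain and ATP synthase genes the ETS motif was in 23.2% and the NRF1 motif in 27.5%. In those of cytosolic ribosomal protein genes these shares were 35.7% and 11.4%. The YY1 share of both lists lay between that of the table and that of the mitochondrial ribosomal protein genes. At least 1 of the 3 was in 58.1% of the windows of the mitochondrial ribosomal protein genes and in 26.7% of those of the table. Of 4 other motifs searched on both strands, that of ERR (AAGGTCA) was in 5.41% and 3.40%, that of SP1 (GGGCGG) in 52.7% and 58.9%, that of CREB (TGACGTCA) in 2.70% and 2.83% and the E-box (CACGTG) in 9.46% and 9.46%. No motif contains another, and the letters searched were settled after first shares had been looked at. A match is a stretch of letters and not a measured binding site. The median log2 fold change of injured over uninjured C3H regions, described next, was -1.35 in the 43 genes with at least 1 of the 3 motifs and -1.33 in the 25 genes without.

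In C3H hearts the mitochondrial ribosomal protein genes were lower in the injured region as a group. Of the 77 genes 73 fell at an adjusted p under 0.05 (limma, adjusted over all 14751 genes tested) and 0 rose, while 15.4% of all genes tested were called lower. The median log2 fold change was -1.35, which leaves 39.3% of the uninjured level. Of the 77 genes 68 were below -1, against 2086 of the 14751 genes tested. The log2 fold change ran from -1.93 for Mrpl42 to -0.66 for Mrps2, while the median over all genes tested was 0.01. Both injured libraries lay below all 3 uninjured ones for each of the 77 genes, as they did for 29.7% of all genes tested. In a bulk sample, fewer cells of a type and less RNA per cell cannot be told apart.

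**Figure D1:**
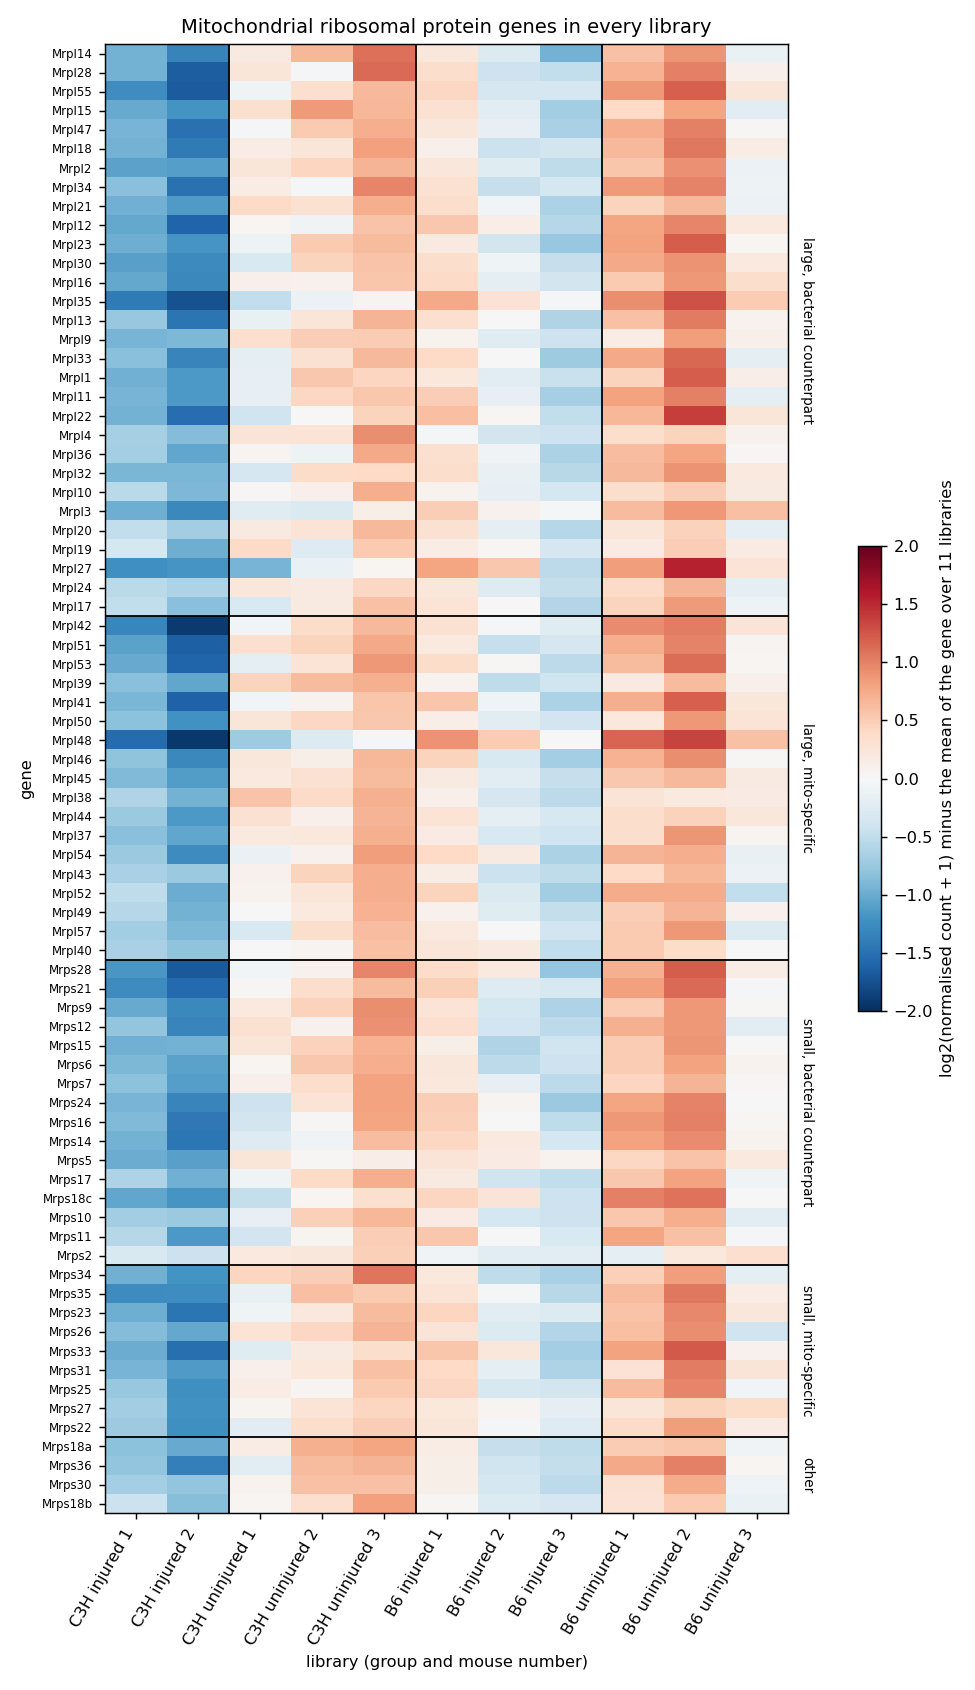
Level of each of the 77 mitochondrial ribosomal protein genes (rows, grouped by subunit and origin and ordered by their change in C3H) in each of the 11 libraries (columns). Colour gives log2(normalised count + 1) minus the mean of the gene over the libraries, blue below and red above. Both C3H injured columns are blue in all rows, and B6 injured libraries 2 and 3 are paler, with medians of -0.20 and -0.49.

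Mrpl42, a mitochondria-specific protein of the large subunit, had the largest fall. Its normalised counts were 1029 and 676 in C3H injured regions, against 2457, 3285 and 4006 in C3H uninjured regions, and 3132, 2474 and 2162 in B6 injured regions, against 4899.6, 5182 and 3043 in B6 uninjured regions. Each C3H injured library was under every other library, and the change in C3H was -1.93 (SE 0.31, adjusted p = 0.000977). Mrpl51, also mitochondria-specific and of the large subunit, had 681 and 459 in C3H injured regions and 1786, 1949 and 2426 in C3H uninjured ones, a change of -1.86 (SE 0.31, adjusted p = 0.00125). Mrpl14, the large-subunit protein to which the assembly factor Malsu1 binds, had 777 and 594 in C3H injured regions, against 1700.1, 2387 and 3247 in uninjured ones, and its change was -1.80 (SE 0.38, adjusted p = 0.00485). C3H uninjured library 3 was the highest C3H library for these 3 genes, as it was for 73 of the 77.

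Among the other large falls were 2 large-subunit proteins with bacterial counterparts. Mrpl28 had 905 and 555 normalised counts in C3H injured regions and 2059, 1728 and 3836 in uninjured ones (log2 fold change -1.75, SE 0.39). Mrpl55 had 426 and 319 in C3H injured regions and 955, 1265 and 1591 in uninjured ones (log2 fold change -1.75, SE 0.33). For both, the uninjured libraries all lay well above the injured ones. In the small subunit, Mrps34, a mitochondria-specific protein needed for the stability of the small-subunit rRNA, had 530.1 and 450.1 in C3H injured regions, against 1394, 1448 and 2173 in uninjured ones (log2 fold change -1.74, SE 0.34). Mrps21, whose promoter is shown above, had 614 and 497 in C3H injured regions and 1489, 1863 and 2267 in uninjured ones (log2 fold change -1.74, SE 0.35). Mrps28, with a bacterial counterpart, had 398 and 278 in C3H injured regions, against 863, 947 and 1757 in uninjured ones (log2 fold change -1.76, SE 0.41). Of the 8 largest falls 5 were in the large and 3 in the small subunit, in a group of 48 Mrpl and 29 Mrps genes. The adjusted p of these 8 ran up to 0.00789.

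At the other end stood Mrps2, a small-subunit protein with a bacterial counterpart. It had 546 and 499 normalised counts in C3H injured regions, against 769, 787 and 935 in C3H uninjured regions, and 643, 572 and 582 in B6 injured regions, against 584, 778 and 853 in B6 uninjured regions. Its change in C3H was -0.66 (SE 0.22, adjusted p = 0.0350), and with the mouse as a fixed block its adjusted p was 0.0782. The B6 groups overlapped. Mrpl17, of the large subunit, had 934 and 732 in C3H injured regions and 1066, 1496 and 1979 in uninjured ones. Its change of -0.83 (SE 0.34, adjusted p = 0.0870) did not pass, whereas with the mouse as a random block adjusted p was 0.0454.

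The other 3 genes that did not pass in C3H were Mrpl52 and Mrps11, named here after their values were seen, and Mrpl27. Mrpl52, mitochondria-specific, had a log2 fold change of -1.09 (SE 0.41, adjusted p = 0.0629), and Mrps11, of the small subunit, one of -0.91 (SE 0.35, adjusted p = 0.0664). Both passed with the mouse as a random block (adjusted p = 0.0206 for Mrpl52 and 0.0320 for Mrps11), Mrpl52 also with it as a fixed block (adjusted p = 0.0210), and both with DESeq2 (adjusted p = 0.0323 and 0.0403). Both also passed without B6 uninjured library 3, Mrpl52 without B6 injured library 1 or with only the groups compared, and Mrps11, like Mrpl17, without C3H uninjured library 1. Mrpl27, whose bacterial counterpart reaches with its tail into the site where amino acids are joined, had 212 and 218 normalised counts in C3H injured regions and 260.4, 454 and 509.7 in uninjured ones, with a change of -0.87 (SE 0.44, adjusted p = 0.153). The groups did not overlap for these 3 genes either, but C3H uninjured library 1 lay near the injured ones for Mrpl27. Mrpl27 was also the only gene of the 77 that passed in none of the 23 settings tried.

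The count of falls in C3H depended on its injured libraries, as it did for several other gene lists described below. Without C3H injured library 2, the lower of the pair for 72 of the 77 genes, 23 passed, and without library 1 it was 56. These 23, which passed in each of the 23 settings, included Mrpl42, Mrpl51, Mrpl39, Mrpl18, Mrpl55, Mrps5, Mrps15, Mrps18a, Mrps21, Mrps27 and Mrps34. Of those of the 77 genes that passed and whose change in C3H is given here, Mrpl3, Mrpl12, Mrpl14, Mrpl22, Mrpl28, Mrps2, Mrps6, Mrps10, Mrps14, Mrps18b, Mrps18c, Mrps22, Mrps23, Mrps28, Mrps30 and Mrps36 did not pass without C3H injured library 2. Mrpl22, Mrps2, Mrps10 and Mrps18c did not pass without C3H injured library 1 or C3H uninjured library 2 or 3 either. Neither did Mrps14 and Mrps18b without C3H uninjured library 3, Mrps2 and Mrps18c without B6 injured library 2, or Mrps18c without B6 uninjured library 1. The median log2 fold change of the 77 genes stayed between -1.52 and -1.15 when any 1 of the 11 libraries was left out.

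The classes of mitoribosomal protein had nearly the same median change in C3H. It was -1.37 for the 30 large-subunit proteins with a bacterial counterpart, of which 28 fell. It was -1.35 for the 18 mitochondria-specific proteins of the large subunit, of which 17 fell, and -1.32 for the 16 small-subunit proteins with a bacterial counterpart, of which 15 fell. All 9 mitochondria-specific proteins of the small subunit fell, with a median of -1.35. The SD of the changes among the 77 genes was 0.27. The median SE of a single gene, 0.32, includes spread between libraries that most of the genes shared. It therefore does not gauge the differences between genes.

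**Figure D2:**
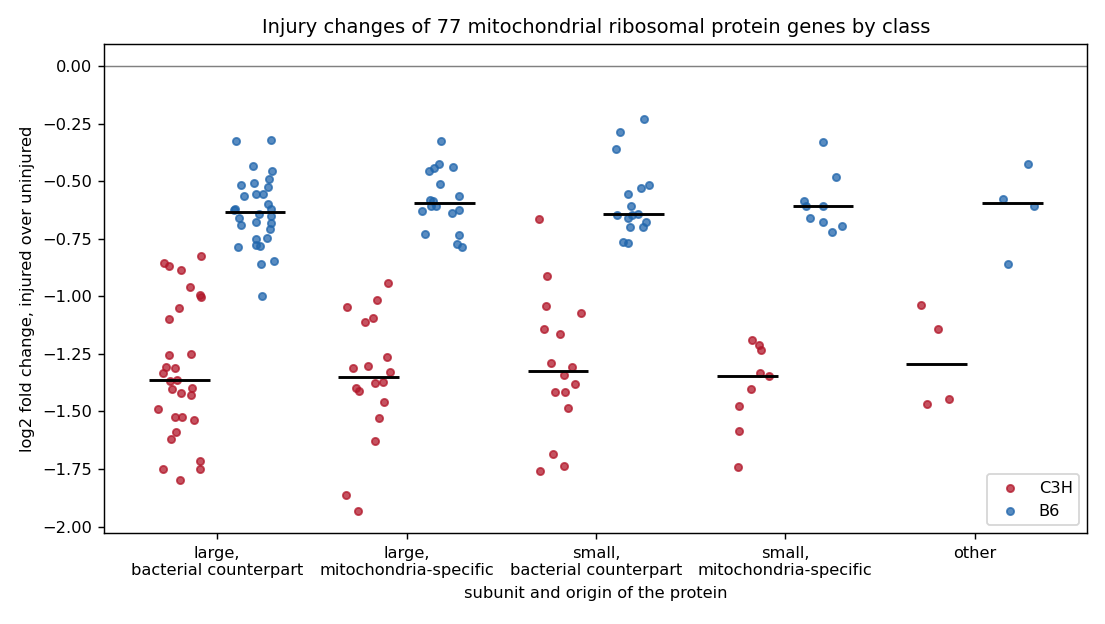
Log2 fold changes of injured over uninjured regions for each of the 77 genes (points) by class of protein, with C3H left (red) and B6 right (blue) in each class and a bar at the median. The C3H medians lie between -1.37 and -1.32 in the 4 large classes, below the B6 medians there. The class named other holds Mrps18a, Mrps18b, Mrps30 and Mrps36.

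The genes outside these 4 classes fell too. Mrps18a, Mrps18b and Mrps18c are paralogs of 1 bacterial protein, and the first sits in the large subunit in spite of its name, while the others, of which Mrps18c was counted above, sit in the small one. The changes in C3H were -1.47 (SE 0.29, adjusted p = 0.00297) for Mrps18a, -1.04 (SE 0.28, adjusted p = 0.0167) for Mrps18b and -1.07 (SE 0.37, adjusted p = 0.0436) for Mrps18c. Of the exon bases, 59.1% of those of Mrps18b and 18.5% of those of Mrps18c are shared with another gene, so that reads may be split or mixed there. Mrps30, which also sits in the large subunit, had a log2 fold change of -1.14 (SE 0.28). Mrps36, found in later work to be an adaptor of the alpha-ketoglutarate dehydrogenase complex and not a part of the mitoribosome, had one of -1.44 (SE 0.36). Mrps30 and Mrps36, named for their place, passed in C3H, like the 3 paralogs, but not without C3H injured library 2 (adjusted p = 0.0821 and 0.121).

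Genes whose human counterparts are mutated in mitochondrial disease with cardiomyopathy fell as well. Mrpl3, a core protein of the large subunit, had 769.6 and 619.7 normalised counts in C3H injured regions, against 1284, 1230.1 and 1644 in uninjured ones, a change of -0.99 (SE 0.23, adjusted p = 0.00684). Mrpl44, a large-subunit protein with a fold like that of ribonuclease III, had 553 and 418 in C3H injured regions and 1149.6, 997 and 1484 in uninjured ones, a change of -1.31 (SE 0.25, adjusted p = 0.00258). Mrps22, mitochondria-specific and of the small subunit, changed by -1.19 (SE 0.30, adjusted p = 0.0112), and Mrps14, with a bacterial counterpart, by -1.29 (SE 0.34, adjusted p = 0.0144). Within each of these genes the injured C3H libraries lay below all the others of the strain.

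The most abundant of the 77 by mean normalised count were Mrpl12, Mrpl42 and Mrps23. Mrpl12 is the stalk protein of the large subunit, which draws in translation factors and has also been found to bind the mitochondrial RNA polymerase. It had 2120.3 and 1425 normalised counts in C3H injured regions, against 4430.0, 4121 and 6372 in uninjured ones, a change of -1.49 (SE 0.35, adjusted p = 0.00834). Mrps23, mitochondria-specific, changed by -1.48 (SE 0.31, adjusted p = 0.00430). The least abundant were Mrps10, Mrpl22 and Mrps22. Mrpl22, which lines the tunnel through which the new protein leaves, had 171 and 114 in C3H injured regions and 249.5, 331 and 453 in uninjured ones, a change of -1.25 (SE 0.40, adjusted p = 0.0327). Mrps10, of the small subunit, changed by -1.04 (SE 0.33, adjusted p = 0.0324). Mrps6, another small-subunit protein, changed by -1.42 (SE 0.30, adjusted p = 0.00460). Of its exon bases 36.1% are shared with other genes, and 15.2% of those of Mrpl12 are shared too. Per kilobase of annotated exon, the mean level ran from 90.5 normalised counts (Mrps5) to 4331 (Mrpl42) over the 61 genes with under 10% of their exon bases shared, with a median of 587.

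In B6 hearts the genes were lower in the injured region too, with a smaller median. All 77 had a negative log2 fold change, as did 7192 of the 14751 genes tested. The median of the 77 was -0.62, which leaves 65.1% of the uninjured level, and the range was -1.0 for Mrpl23 to -0.23 for Mrps5. None of the 77 passed the adjusted threshold, with limma, edgeR or DESeq2, and 0.0% of all genes tested were called lower. At an unadjusted p under 0.05, 38 of the 77 were lower, against 6.54% of all genes. The groups did not overlap for 11 of the 77 genes, against 7.69% of all genes. The lowest adjusted p was 0.364.

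Mrpl18, a large-subunit protein with a bacterial counterpart, had the smallest p. It had 1826, 1258 and 1312 normalised counts in B6 injured regions, against 2668, 3505 and 1878 in B6 uninjured regions, and 875 and 632 in C3H injured regions, against 1874, 2006 and 2982 in C3H uninjured regions. The B6 groups did not overlap, though B6 injured library 1 lay just under B6 uninjured library 3, and the log2 fold change was -0.85 (SE 0.27, adjusted p = 0.364). Mrpl23, which sits at the exit of the protein tunnel, had 437, 300.1 and 227 in B6 injured regions and 674, 894 and 396 in B6 uninjured ones, with an overlap and a log2 fold change of -1.0 (SE 0.33, adjusted p = 0.364). Mrps15, of the small subunit, had 992, 601 and 689 in B6 injured regions, against 1304, 1686 and 921 in B6 uninjured ones, and a log2 fold change of -0.77 (SE 0.26, adjusted p = 0.364). Next by p came Mrpl55, with 1342, 798 and 798 in B6 injured regions, against 1842, 2323 and 1195 in B6 uninjured ones, and a log2 fold change of -0.86 (SE 0.30, adjusted p = 0.364). In these genes B6 uninjured library 3 was the lowest of its group, close to or under B6 injured library 1.

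Within single hearts the direction was nearly uniform. In C3H mouse 1 all 77 genes were lower in the injured than in the uninjured region of the heart, with a median difference of -0.87 on the log2(normalised count + 1) scale, and in C3H mouse 2 all 77 were, with a median of -1.45. In B6 mouse 1 it was 74 of 77, with a median of -0.27, and in B6 mice 2 and 3 all 77, with medians of -1.04 and -0.51. Of all 14751 genes tested, 7463 and 7367 were lower in the injured region of C3H mice 1 and 2. In B6 mice 1, 2 and 3 these counts were 7478, 6992 and 7679. The 3 genes that were higher in the injured region of B6 mouse 1, named after their values were seen, were Mrps2, Mrpl20 and Mrps31, with 643, 956 and 1058 normalised counts there, against 584, 917 and 979.7 in the uninjured region. The median differences of B6 mouse 2 and C3H mouse 1 thus lay beside each other, with the larger one in B6.

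**Figure D3:**
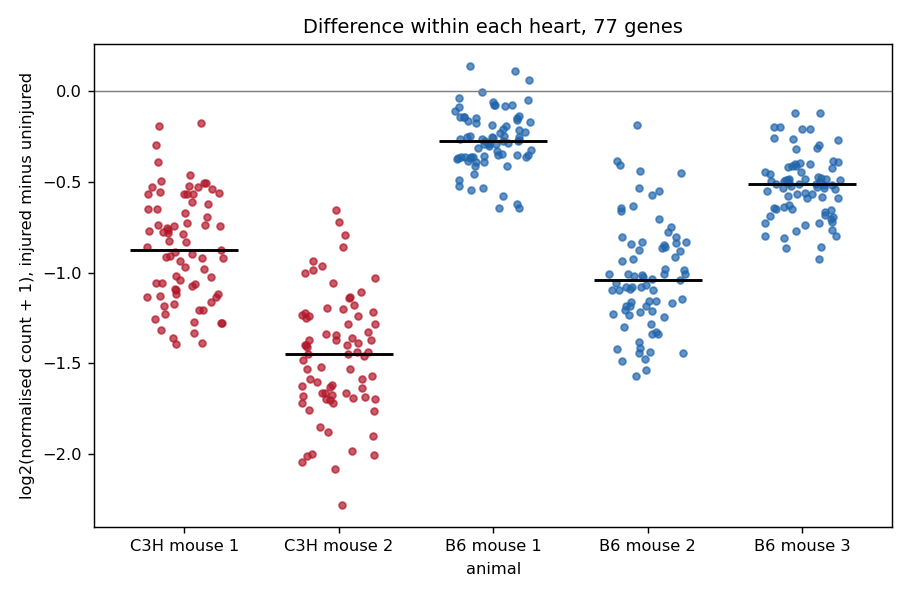
Difference between the injured and the uninjured region of the same heart in log2(normalised count + 1), for each of the 77 genes (points) in the 5 mice with both regions, C3H in red and B6 in blue, with a bar at the median. The bars are at -0.87 and -1.45 in C3H and at -0.27, -1.04 and -0.51 in B6.

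Whether injury acted differently in the strains was tested by the difference of the injury effects, C3H minus B6. It was negative for 7568 of the 14751 genes tested and for all 77 genes, which had a median of -0.72. None passed the adjusted threshold with limma or edgeR, where 0.0678% of all genes tested were called in that direction, and 1 passed with DESeq2. At an unadjusted p under 0.05 there were 18 of 77, against 5.9% of all genes.

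Mrps5, a small-subunit protein whose bacterial counterpart bears on the accuracy of decoding, had the smallest p. Its normalised counts were 194 and 181 in C3H injured regions and 455, 390.5 and 420.0 in C3H uninjured regions, against 462, 432 and 402 in B6 injured regions and 512, 574 and 438 in B6 uninjured regions. All libraries but the 2 of C3H injured regions lay within 390.5 to 574. The difference of the injury effects was -0.94 (SE 0.28, adjusted p = 0.143), and adjusted p was 0.0345 with the mouse as a random block and 0.0243 with DESeq2. Mrpl39, a mitochondria-specific protein of the large subunit, had 655 and 570.3 in C3H injured regions and 1590.2, 1811 and 1913 in C3H uninjured regions, against 1232, 820.1 and 891 in B6 injured regions and 1328, 1819 and 1259 in B6 uninjured regions. The difference of its injury effects was -0.94 (SE 0.32, adjusted p = 0.195). For Mrps27, a mitochondria-specific protein of the small subunit with pentatricopeptide repeats, it was -0.89 (SE 0.30, adjusted p = 0.196), with 22.6% of its exon bases shared with another gene. For Mrpl42, whose counts are given above, it was -1.20 (SE 0.41, adjusted p = 0.196).

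**Figure D4:**
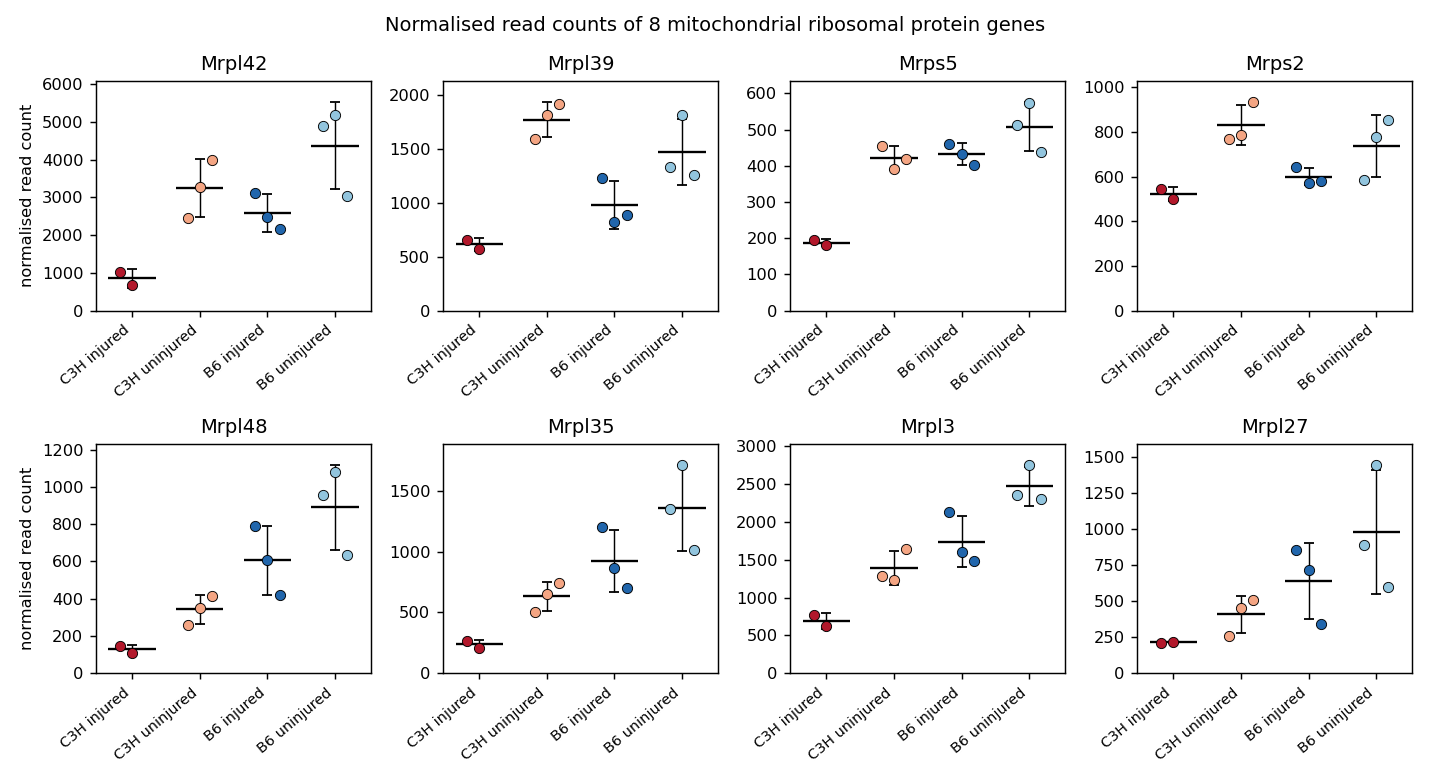
Normalised counts of 8 mitochondrial ribosomal protein genes in each library (points), by group, with the mean (bar) and SD (whiskers; n = 2 in C3H injured regions and 3 in the others). For Mrps5 the C3H injured points lie at 194 and 181, below the other 9 libraries, and for Mrpl48, Mrpl35 and Mrpl3 the C3H points lie below the B6 points of the same region.

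In uninjured regions, C3H and B6 differed for 3 of the 77 genes, all lower in C3H, against 1.79% of all genes called lower. The median log2 difference was -0.17, with 57 genes lower in C3H and 20 higher, while 7451 of the 14751 genes tested were lower. Mrpl48, a mitochondria-specific protein of the large subunit, had 258, 352 and 416 normalised counts in C3H uninjured regions, against 954, 1080.5 and 635 in B6 uninjured regions, a difference of -1.37 (SE 0.29, adjusted p = 0.0259). Mrpl35, with a bacterial counterpart, had 504, 654 and 742 in C3H uninjured regions and 1350.0, 1717 and 1015 in B6 uninjured regions, a difference of -1.09 (SE 0.26, adjusted p = 0.0450). Mrpl3, for which the C3H counts are given above, had 2349.8, 2758 and 2299 in B6 uninjured regions, and the difference was -0.84 (SE 0.20, adjusted p = 0.0450). For these 3 genes the strains did not overlap. Mrpl27 came next, with a difference of -1.22 (SE 0.39, adjusted p = 0.134), and 887, 1448 and 599.8 in B6 uninjured regions. Mrpl27 passed with DESeq2 (adjusted p = 0.0342) and without B6 uninjured library 3 (adjusted p = 0.0488). With the mouse as a random block the adjusted p of Mrpl3 was 0.0523, and none of the 3 passed without C3H uninjured library 1 or 2, or without B6 uninjured library 1 or 2. Mrpl48 alone passed without C3H injured library 1 or 2, C3H uninjured library 3 or B6 injured library 2, and Mrpl3 did not pass without B6 injured library 3. Since build mm9 was made from B6, reads from C3H alleles may align less often, and the part of this in the strain differences was not tested.

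In injured regions all 77 genes were lower in C3H than in B6, as were 7313 of the 14751 genes tested. The median log2 difference of the 77 was -0.90, and 13 passed, against 3.34% of all genes called lower. The difference was -2.20 (SE 0.33, adjusted p = 0.00267) for Mrpl48, with 145 and 110.2 normalised counts in C3H injured regions and 791, 606 and 421 in B6 injured regions. It was -1.92 (SE 0.29, adjusted p = 0.00312) for Mrpl35, with 265 and 211 in C3H injured regions and 1203, 868 and 699.7 in B6 injured regions. For Mrpl3 it was -1.32 (SE 0.23, adjusted p = 0.00605), with 2126, 1607 and 1489.6 in B6 injured regions, and for Mrps5 -1.20 (SE 0.21, adjusted p = 0.00643). Mrpl48, Mrpl35 and Mrpl3 were thus lower in C3H in both kinds of region, and Mrps5 had a difference of -0.26 (SE 0.19, adjusted p = 0.539) in uninjured regions. The other 9 that passed were Mrpl12, Mrpl16, Mrpl42, Mrpl51, Mrpl55, Mrps14, Mrps21, Mrps23 and Mrps27, of which Mrpl16 is named after its values were seen. With the mouse as a random block 10 passed, and Mrpl51, Mrps14 and Mrps23 did not (adjusted p = 0.0593, 0.0509 and 0.0603). The count was 0 without C3H injured library 2, 6 without C3H injured library 1, 5 without B6 injured library 1 or 2, 7 without B6 uninjured library 1, 20 without B6 injured library 3 and 23 without B6 uninjured library 3.

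The order of the 4 group means was the same for 51 of the 77 genes: C3H injured lowest, then B6 injured, C3H uninjured and B6 uninjured. In 17 genes C3H uninjured was highest, and in 9 it was below B6 injured. C3H injured regions had the lowest mean in all 77. The median deviation of the 77 genes from their own mean over all libraries was -0.89 and -1.19 in C3H injured regions, 0.04, 0.27 and 0.65 in C3H uninjured regions, 0.27, -0.20 and -0.49 in B6 injured regions and 0.58, 0.88 and 0.06 in B6 uninjured regions. The B6 groups and the C3H uninjured group thus overlapped on this scale, and C3H injured regions stood apart.

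Other genes of mitochondrial translation were lower in injured C3H regions as well, where 15.4% of all genes tested were called lower. The 6 mitoribosomal proteins with names outside the Mrpl and Mrps series all fell, with a median log2 fold change of -1.27 in C3H and -0.65 in B6, where none passed. Ict1, a peptidyl-tRNA hydrolase built into the large subunit, changed by -1.38 (SE 0.34, adjusted p = 0.00990) in C3H, and Dap3, a GTP-binding protein of the small subunit, by -1.35 (SE 0.28, adjusted p = 0.00440). Of 26 genes of mitoribosome assembly and rRNA modification 19 fell in C3H (median -0.99), among them Rnmtl1, which methylates the large-subunit rRNA, and Rpusd3, of the pseudouridine synthase family. Their changes were -1.61 (SE 0.28, adjusted p = 0.00166) for Rnmtl1 and -1.52 (SE 0.37, adjusted p = 0.0103) for Rpusd3.

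Of 17 mitochondrial translation factors 15 fell in C3H (median -1.14), against 15.4% of all genes tested. The elongation factor gene Tufm had 832 and 572 normalised counts in C3H injured regions, against 1977, 1636 and 2644 in C3H uninjured regions, and changed by -1.57 (SE 0.27, adjusted p = 0.00170). Its exchange factor Tsfm changed by -1.76 (SE 0.34, adjusted p = 0.00270). Of 20 genes that charge mitochondrial tRNAs 12 fell (median -1.01), among them Gatb, a subunit of the amidotransferase that makes glutaminyl-tRNA, which changed by -1.44 (SE 0.27, adjusted p = 0.00224). Lars2, the leucyl-tRNA synthetase, had a log2 fold change of -1.59 (SE 0.57, adjusted p = 0.0503), and adjusted p was 0.00364 with the mouse as a fixed block and 0.00976 as a random block. Lars2 also passed with edgeR (adjusted p = 0.0387) and DESeq2 (adjusted p = 0.00558). Of 10 genes of mitochondrial DNA transcription and replication 8 fell (median -0.92), among them the helicase gene Peo1, which changed by -1.31 (SE 0.25, adjusted p = 0.00249), and the transcription elongation factor gene Tefm, which changed by -1.29 (SE 0.30, adjusted p = 0.00723). Without C3H injured library 2 the counts were 2 of 6 proteins outside the name series, 6 of 26 assembly genes, 6 of 17 factors, 2 of 20 charging genes and 1 of 10 transcription and replication genes, and Ict1, Rpusd3 and Tefm did not pass. Without C3H injured library 1 they were 4, 11, 10, 10 and 5, and without C3H uninjured library 3 they were 3, 11, 12, 10 and 6, in the same order. In B6, 0 genes of these lists passed, and their medians lay between -0.65 and -0.39. No symbol in the table began with mt-, the only mark by which genes encoded in mitochondrial DNA were sought. The rRNAs of the mitoribosome were not analysed here.

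The nuclear genes of the respiratory chain and ATP synthase, whose partner subunits the mitoribosome makes, had a larger median change, -1.85 in C3H, where 75 of 79 fell (36 without C3H injured library 2), and -0.86 in B6 (-0.54 with quantile normalisation). Of all genes tested 15.4% were called lower in C3H. The proteins of the cytosolic ribosome share the word ribosomal but not the compartment. Their median was -0.30 in C3H, where 3 of 78 fell and 0 rose, and -0.27 in B6. Over the settings tried, 1 to 6 of them fell and 0 or 1 rose in C3H, and their median ran from -0.56 to -0.18 in C3H and from -0.65 to -0.05 in B6. Their summed normalised counts were 153846 to 165989.8 in C3H injured regions and 149948 to 234940.3 in C3H uninjured regions, with an overlap. Those of the 77 mitochondrial ribosomal protein genes were 35169 to 44658 in C3H injured regions, against 84479 to 132123 in C3H uninjured regions, with none. The differences between these lists were not tested.

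**Figure D5:**
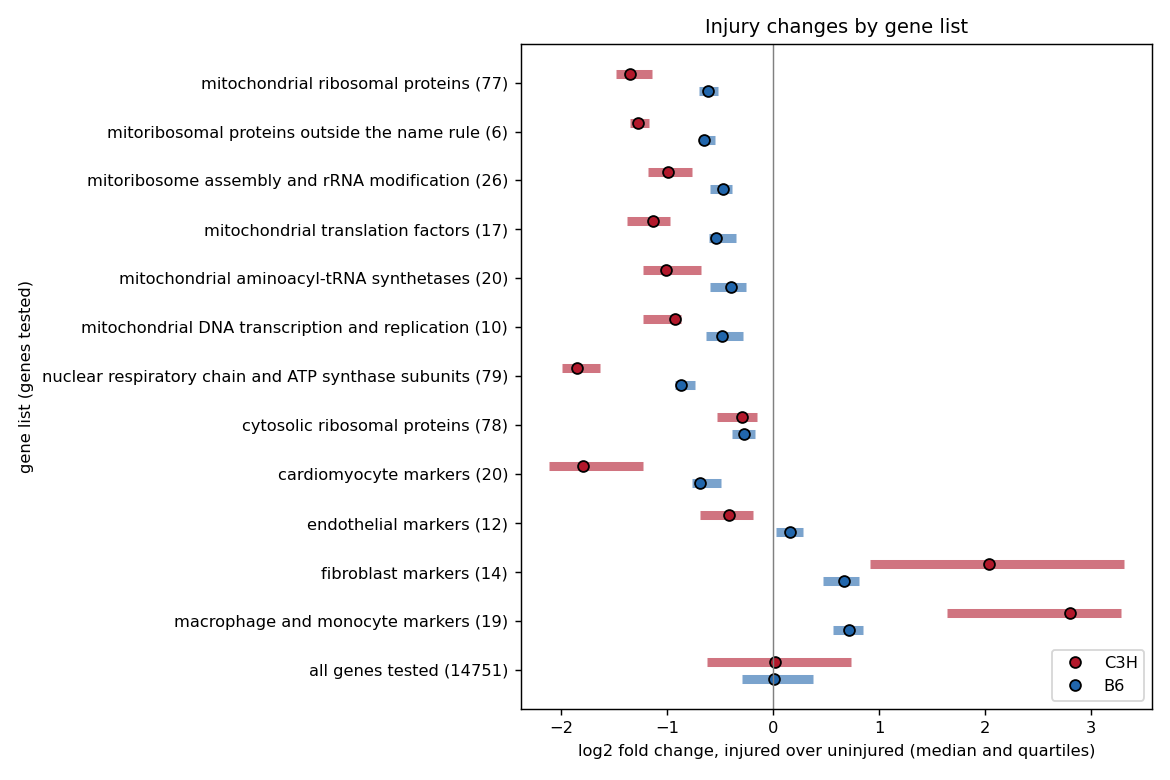
Median (point) and quartiles (bar) of the log2 fold changes of injured over uninjured regions in C3H (red, upper) and B6 (blue, lower) for the 77 mitochondrial ribosomal protein genes, other gene lists and all 14751 genes tested, with the number of genes tested in brackets. The 77 genes have medians of -1.35 and -0.62, the cytosolic ribosomal proteins of -0.30 and -0.27.

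Of 4 lists of cell type markers, only that of cardiomyocytes had a negative median injury change in both strains, like the 77 genes. In uninjured regions the median of C3H minus B6 was 0.38 for cardiomyocyte markers and -0.17 for the 77 genes. Of 20 cardiomyocyte markers 16 fell in C3H (9 without C3H injured library 2), with a median log2 fold change of -1.79, and 0 passed in B6, where the median was -0.69. With quantile normalisation these medians were -1.09 in C3H and -0.19 in B6, with 11 of the 20 called lower in C3H. Their summed normalised counts were 778285 to 882772 in C3H injured regions, against 2359702 to 2937826 in C3H uninjured regions. They were 1334773 to 1713709 in B6 injured regions, against 2158651 to 2690916 in B6 uninjured regions. So the C3H injured libraries were lowest in these sums of cardiomyocyte markers, as they were in mitochondrial ribosomal protein genes. The marker sums of injured and uninjured regions did not overlap in either strain. Gene by gene, the injured group lay below the uninjured one without overlap for 17 of 20 markers in C3H and 5 in B6. The shares over all genes were 29.7% and 7.69%, and 15.4% of all genes tested were called lower in C3H. Sums of the 77 genes overlapped in B6, at 59642 to 102832 in injured and 87142 to 154129 in uninjured regions. In C3H, 17 of 19 macrophage and monocyte markers rose (median 2.80), where 2253 of the 14751 genes tested were called higher. Their sums were 117372 to 201854 in C3H injured regions and 17826 to 31595 in C3H uninjured regions. In B6 0 passed (median 0.71, or 0.43 without B6 uninjured library 3), or 1 with the mouse as a fixed block, with sums of 52296 to 74408 in B6 injured regions and 31365 to 46197 in B6 uninjured regions. Of 14 fibroblast markers 9 rose in C3H (median 2.03, 5 without C3H injured library 1, 6 without C3H injured library 2) and 0 passed in B6 (median 0.67). Of 12 endothelial markers 4 fell in C3H (median -0.41), with 0 to 5 over the settings tried, and 0 passed in B6 (median 0.15). No marker of these 4 lists was at 0 in any library, and the part of cell makeup in the changes of the mitochondrial ribosomal protein genes was not tested.

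The 77 genes are short, with a median of 1363 annotated exon bases, against 3266 over the genes tested that have a length. As a description over genes, which are not independent, the log2 fold change of the 77 genes had a Spearman correlation with exon length of 0.27 in C3H and 0.33 in B6, and over all 14211 genes with a length it was 0.29 and 0.27. Shorter genes thus tended to have lower log2 fold changes, within the group as across the table. With the mean level the correlation was -0.49 in C3H and -0.29 in B6 for the 77 genes, and -0.22 and -0.27 over all genes with a length. The parts of gene length and of level in the changes were not tested. In 16 of the 77 genes at least 10% of the exon bases are shared with other genes, on the same or the opposite strand. Reads there may be split or mixed, and nothing used here says whether counting used the strand. Mrpl53, named after its values were seen, is the extreme, with all its exon bases shared.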

How the data were processed

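RNA of 11 heart samples was sequenced, extracted with a column kit per the labels' protocols. Per the submitters' processing notes, the authors used TopHat2 2.0.11 for alignment (build mm9), HTSeq 0.6.1 for counting and DESeq for size factors. Their annotation and strand setting are not stated. Each deposited signal is the read count of a gene divided by the size factor of its library. All values of each library were whole multiples of 1 step (tolerance 1e-06), which gave the reads. With no coordinates in the files, exon lengths came from the GENCODE annotation of GRCm38 and promoters from RefSeq, by symbol only.

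Testing was limited to genes with a value of 10 or more in 2 or more libraries (14751, with 523 not). The model was fitted on log2(value + 1), which understates changes of low genes, with 4 group means over all 11 libraries, in limma 3.58.1 (R 4.3.3, mean-variance trend, 7 residual degrees of freedom, two-sided p, Benjamini-Hochberg adjustment over all genes tested). The scripts were tested on simulated data. Alternatives were other pseudocounts, filters and scalings, only the groups compared, edgeR 4.0.16 and DESeq2 1.42.0 on the recovered reads, the mouse as a block and each library left out. List counts under these were added after seeing the data.

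The genes, lists and rule for naming genes were chosen with earlier results of these data known. The rule took in the C3H injury comparison the 8 largest falls and the 2 smallest changes (no gene rose), the 4 smallest p in each other comparison, the 3 highest and 3 lowest by mean, Mrpl3, Mrpl44, Mrps22, Mrps14, Mrpl12, Mrps6 and the Mrps18 paralogs, and the 2 largest C3H changes of each related list.

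Libraries of the same number within a strain are regions of the same mouse, as the labels name it. Residuals of such pairs correlated at 0.305 and 0.575 in C3H and at 0.276, -0.0140 and 0.524 in B6. Libraries of different strains share no animal.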

Additional observations from a re-analysis of the deposited data

How the results depend on the processing

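The median change of the 77 genes was negative in the 5 comparisons in every setting tried, and 0 of the values of named genes reversed (963 kept their side of the threshold, 68 lost it and 17 gained it). Leaving out 1 library gave 23 to 75 calls in C3H, 0 in B6 and 0 for the difference of the injury effects. It gave 0 to 4 between strains in uninjured regions and 0 to 23 in injured regions. In C3H the other settings gave 71 to 76. In injured regions DESeq2 called 31 genes between strains, only the groups compared 22 and quantile normalisation 32, against 13 in the limma fit. In uninjured regions edgeR called 1, only the groups compared 0 and the limma fit 3. For the difference of the injury effects DESeq2 called 1. The cause was not tested. Medians ran from -1.52 to -1.15 in C3H, from -0.85 to -0.42 in B6 and from -0.92 to -0.51 for their difference. Between strains they ran from -0.40 to -0.01 in uninjured and from -1.08 to -0.66 in injured regions. Quantile normalisation moved the median of all genes in C3H by -0.13, to -0.11, where the 77 genes had -1.35.

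With the mouse as a replicate block, fixed (3 residual degrees of freedom) or random (correlation 0.392), 73 and 76 genes fell in C3H and 0 passed in B6. With the random block 1 gene, Mrps5, passed for the difference of the injury effects, 2 passed between strains in uninjured regions and 10 in injured ones. The blocked calls that differ for named genes (in C3H Mrps2, Mrpl17, Mrpl52, Mrps11 and Lars2, for the difference of the effects Mrps5, and between strains Mrpl3, Mrpl51, Mrps14 and Mrps23) stand in the report, and the block changed no other call of a named gene in the comparisons for which it is named.

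C3H injured regions rest on 2 libraries, and with 1 left out the lone library is assumed to vary like the other groups. With at least 156 reads per gene and library, depth did not limit detection of any of the 77 genes, and their number of libraries limits the precision.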
